A study of Mus musculus with 18 samples.

Results

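The genes described here are 10 genes of the hypoxia response and of glycolysis, chosen by symbol: Hif1a, Egln3, Hk2, Pfkfb3, Aldoa, Pgk1, Ldha, Slc16a3, Pdk1 and Bnip3. They took 11 of the 37319 entries of the expression table, because Aldoa was listed under 2 gene identifiers. The second Aldoa entry lay between 0 and 0.97 FPKM (fragments scaled to transcript length and to the mapped total of the library) and was left aside. RNA-seq was done on ipsilateral cortex, the cortex on the injured side, of male C57BL/6J mice that were 8 to 10 weeks old and weighed 24 to 26 g. Every mouse had received an adeno-associated virus (AAV) in the left lateral ventricle 4 weeks before surgery. The AAV used a synapsin promoter, active in neurons, to express a short hairpin RNA (shRNA), either a scramble sequence (control arm, library names ending in C and a number) or one directed against Tiparp (Tiparp arm, names ending in T and a number), which encodes a mono-ADP-ribosyltransferase. Surgery was either a sham operation (Sham) or tMCAO, a transient occlusion of the middle cerebral artery, which blocks and then reopens an artery that feeds the lateral cortex. Cortex was collected 24 h (R24h) or 28 d (R28d) after tMCAO. The 18 libraries made 6 groups of 3, and the shRNA acted in neurons only as far as the promoter restricts it, in a tissue that also holds glia, vessels and blood cells.

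Cells sense oxygen through prolyl hydroxylases, among them the product of Egln3 (PHD3), which mark hypoxia-inducible factor 1 alpha (HIF-1α, the product of Hif1a) for destruction when oxygen is present. When oxygen is short, HIF-1α persists, pairs with ARNT and binds hypoxia response elements, and the genes it switches on take up glucose, run glycolysis to lactate and keep pyruvate out of mitochondria. HIF-1α is controlled largely as a protein, so Hif1a mRNA is one input of the pathway and no measure of its activity. Ischemic brain is a classic setting for this response.

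All 10 genes had at least 1 promoter in the RefSeq table (build GRCm38.p6; 15 promoters, each from 250 bases before to 50 bases after the start site). The core of a hypoxia response element was searched as ACGTG and as GCGTG on both strands, and CACGTG counts on both strands at once. The first of these cores was present in 11 of the 15 promoters, which belonged to 9 of the 10 genes, all but Pdk1. Over all 32851 promoters of the table, 19.6% held ACGTG, 32.4% held GCGTG and 43.8% held either. Of the 15 promoters, 13 held either core, and each of the 10 genes had at least 1 of these. The 250 bases before the start site are shown for the 5 genes that passed a test at 24 h and for Pdk1, which did not and lacks ACGTG, with the cores in capitals. They lie at chr12:73907617-73907866 (plus strand), chr12:54203875-54204124 (minus strand), chr6:82774455-82774704 (minus strand), chrX:106186850-106187099 (plus strand), chr7:46845554-46845803 (plus strand) and chr2:71872974-71873223 (plus strand), each given 5′ to 3′ on the strand of the gene.
Hif1a: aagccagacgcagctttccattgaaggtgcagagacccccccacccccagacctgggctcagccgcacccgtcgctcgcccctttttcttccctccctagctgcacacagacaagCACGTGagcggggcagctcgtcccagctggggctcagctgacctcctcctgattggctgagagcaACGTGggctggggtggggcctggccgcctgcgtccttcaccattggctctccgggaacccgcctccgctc
Egln3: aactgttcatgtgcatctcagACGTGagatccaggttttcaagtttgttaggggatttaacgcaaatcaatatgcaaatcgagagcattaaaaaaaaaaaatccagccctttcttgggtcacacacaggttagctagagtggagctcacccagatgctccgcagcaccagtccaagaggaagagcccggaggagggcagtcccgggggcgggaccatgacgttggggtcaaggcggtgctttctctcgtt
Hk2: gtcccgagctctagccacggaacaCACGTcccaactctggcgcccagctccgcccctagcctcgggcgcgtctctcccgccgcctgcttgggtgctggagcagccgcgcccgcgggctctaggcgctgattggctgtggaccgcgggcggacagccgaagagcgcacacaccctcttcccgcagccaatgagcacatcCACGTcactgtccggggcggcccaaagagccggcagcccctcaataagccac
Pgk1: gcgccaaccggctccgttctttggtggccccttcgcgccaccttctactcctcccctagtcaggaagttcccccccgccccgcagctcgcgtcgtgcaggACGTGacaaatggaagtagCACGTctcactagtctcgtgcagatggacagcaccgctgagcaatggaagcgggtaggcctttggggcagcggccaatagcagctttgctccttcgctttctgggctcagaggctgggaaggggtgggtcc
Ldha: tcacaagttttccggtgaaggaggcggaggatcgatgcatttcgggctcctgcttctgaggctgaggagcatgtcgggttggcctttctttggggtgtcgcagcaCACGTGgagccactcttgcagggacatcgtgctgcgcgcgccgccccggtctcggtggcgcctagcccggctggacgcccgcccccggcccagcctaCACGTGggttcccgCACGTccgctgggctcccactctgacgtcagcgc
Pdk1: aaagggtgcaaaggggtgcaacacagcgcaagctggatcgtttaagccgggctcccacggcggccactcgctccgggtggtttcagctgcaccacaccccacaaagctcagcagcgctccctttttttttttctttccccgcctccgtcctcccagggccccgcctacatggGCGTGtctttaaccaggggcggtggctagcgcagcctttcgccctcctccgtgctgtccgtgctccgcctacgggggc
The Ldha promoter carried the most ACGTG matches (5 over both strands), then that of Hif1a with 3. Hk2 and Pgk1 had 2 each, as had Slc16a3, Bnip3 and the second Pfkfb3 promoter. ACGTG was thus also present in genes without a call at 24 h. These were Pfkfb3, Aldoa and Bnip3, which did not pass, and Slc16a3, which was not tested. Egln3 had a single match, 229 bases before its start site. A match of 5 letters is a description of the sequence, and no binding of HIF-1α was measured here.

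**Figure D1:**
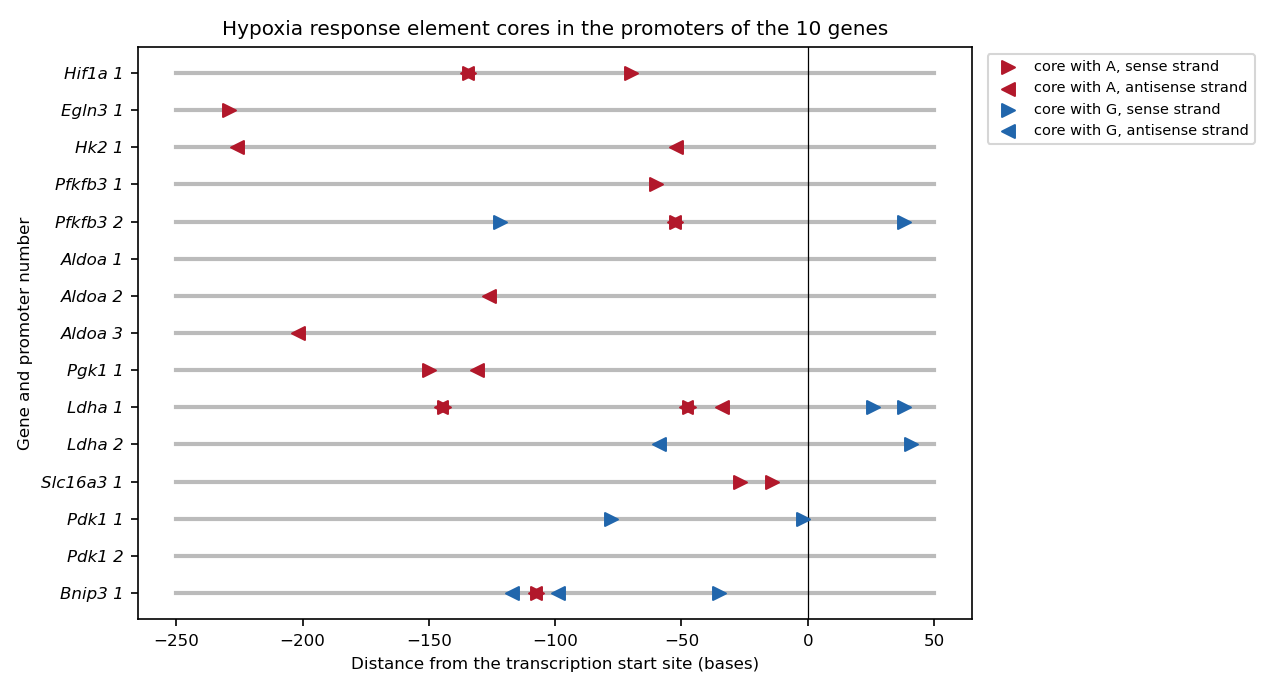
Position of hypoxia response element cores in the 15 promoters of the 10 genes, as distance in bases from the transcription start site, with sense matches pointing right and antisense matches pointing left (red, the core that starts with A; blue, the core that starts with G). The red core lies in 11 of the 15 promoters and is absent from both Pdk1 promoters, the first Aldoa promoter and the second Ldha promoter.

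The libraries were of similar depth, as far as FPKM can tell: the steps of the lowest values put the other 17 at 0.94 to 1.08 times Sham_C1, a ratio that 7.06% to 9.20% of low genes shared. Tiparp, the targeted gene, was at 3.77 to 4.76 FPKM in Sham_C and 4.17 to 4.95 FPKM in Sham_T. It was at 4.6 to 8.65 FPKM in R24h_C and 3.00 to 5.00 FPKM in R24h_T, and at 3.59 to 4.46 FPKM in R28d_C and 3.72 to 4.06 FPKM in R28d_T, with overlap in each pair. Tiparp mRNA showed no difference between the arms that an exact two-sided permutation test on 3 libraries against 3 could detect, since such a test cannot go below p = 0.1. On the log2(FPKM + 1) scale its level with the Tiparp shRNA, less that with the scramble shRNA, was 0.06 in sham (exact permutation p = 0.6), -0.60 at 24 h (p = 0.2) and 0.00 at 28 d (p = 1). Markers of cortical excitatory neurons (6 genes) were present in every library. They summed to 63.9, 172 and 208 FPKM in the 3 libraries of R24h_C, and to between 170 and 223 FPKM in the other groups. Ttr, made by choroid plexus, exceeded 100 FPKM in 4 libraries, namely R24h_C3 (1682 FPKM), R28d_T2 (712 FPKM), Sham_T1 (624 FPKM) and Sham_T2 (501 FPKM). Results that rest on these libraries are given also without them where the call changed.

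Over the 18 libraries the mean level, which FPKM sets per transcript length, fell in the order Aldoa (284 FPKM), Pgk1 (59.2), Ldha (37.7), Bnip3 (21.1), Hif1a (11.1), Pdk1 (5.42), Pfkfb3 (4.73), Egln3 (2.80), Hk2 (1.18) and Slc16a3 (0.644 FPKM). Aldoa (248 to 359 FPKM) lay above all others in every library, and Pgk1 (48.3 to 74.3 FPKM) exceeded Ldha (29.8 to 55.0 FPKM) within each library although their ranges overlapped. Pdk1 (4.39 to 6.69 FPKM) and Pfkfb3 (2.80 to 8.12 FPKM) lay within the same range, and so in part did Egln3 (1.34 to 6.75 FPKM). Hk2 (0.466 to 2.38 FPKM) and Slc16a3 (0.368 to 1.92 FPKM) were the lowest. The highest library exceeded the lowest 5.05-fold for Egln3, 5.10-fold for Hk2 and 5.23-fold for Slc16a3, but 1.45-fold for Aldoa and 1.52-fold for Pdk1.

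At 24 h after tMCAO, 4 of the 10 genes rose over both arms: Egln3, Hk2, Hif1a and Pgk1. Ldha rose in the control arm, with no call in the Tiparp arm or over both, and none of the 10 fell in any test at 24 h. Aldoa, the most abundant of them, Pfkfb3, Pdk1 and Bnip3 did not pass in any of these tests. In all, 9 of the 10 genes entered the test over both arms, with Slc16a3 under 1 FPKM in 17 of 18 libraries and so never tested. Hk2 was under 1 FPKM in all 6 sham libraries and entered only through the libraries after tMCAO. Against 4 of 9 for these genes, 24.7% of the 14589 genes tested passed over both arms (limma on log2(FPKM + 1), adjusted p under 0.05), and 19.3% rose. The median difference was 0.30 for the 9 genes and 0.10 for all genes tested, on the log2 scale. In bulk tissue a change in the number of cells of a type and a change in RNA per cell cannot be told apart.

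**Figure D2:**
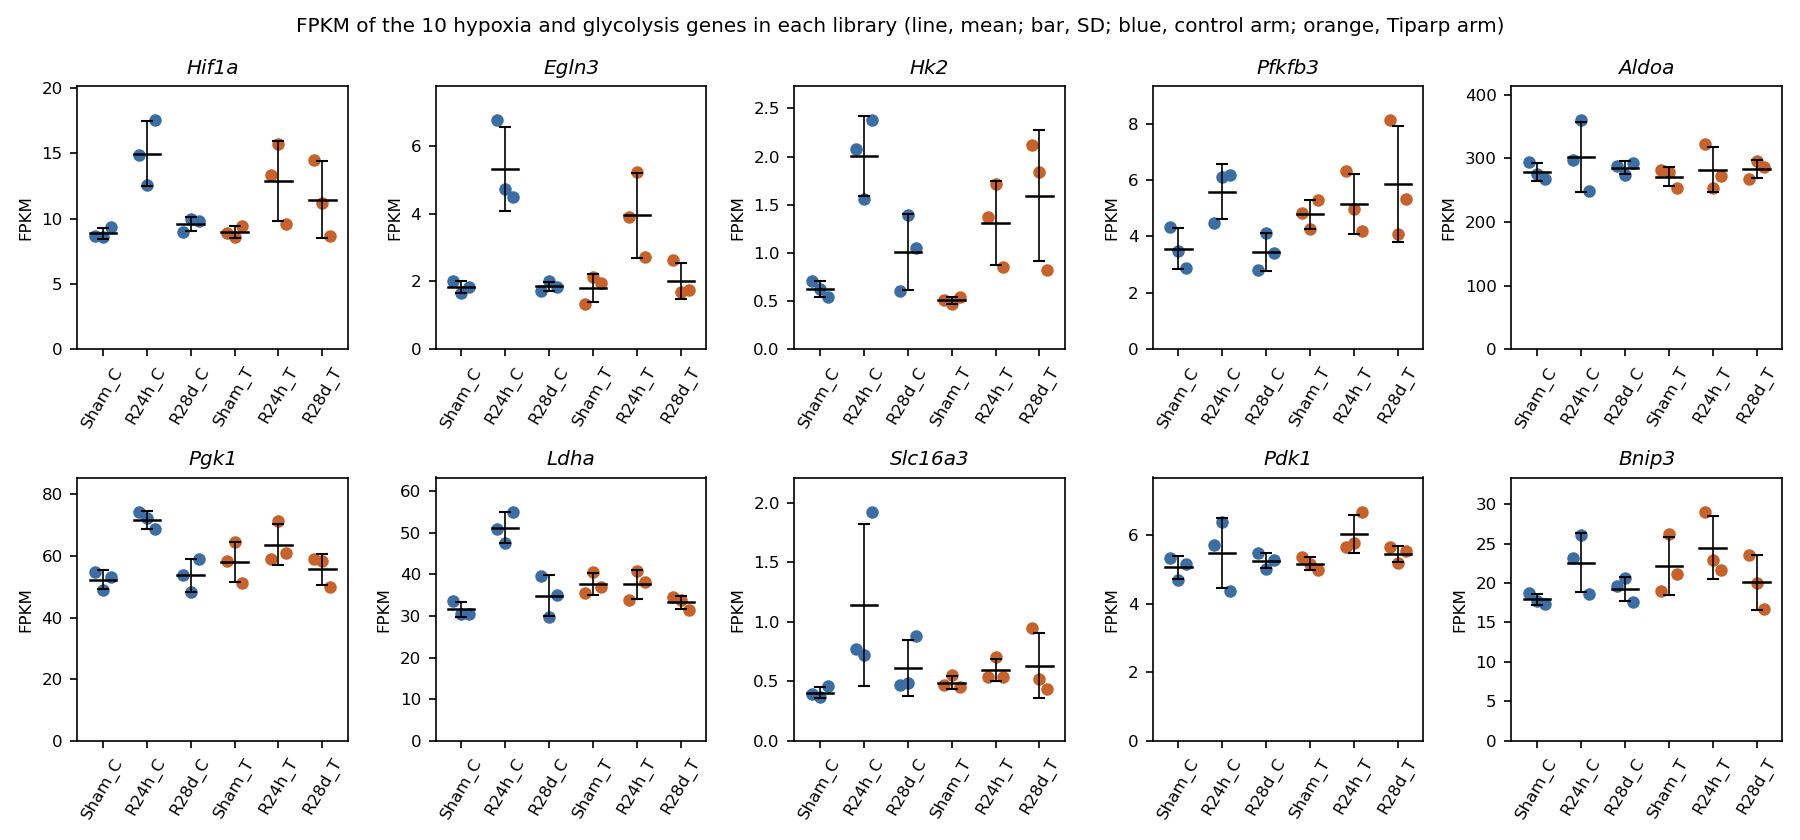
FPKM of each of the 10 genes in every library of the 6 groups (C, control arm in blue; T, Tiparp arm in orange), each dot 1 library, with the mean as a line and the SD as a bar (n = 3). Hif1a, Egln3 and Hk2 are higher in all 6 libraries at 24 h than in all 6 sham libraries, and Ldha at 24 h has a mean of 51.2 FPKM in the control arm and 37.6 FPKM in the Tiparp arm.

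Hif1a (ENSMUSG00000021109), the oxygen-regulated subunit, rose at 24 h. Hif1a in the control arm was at 8.70, 8.59 and 9.34 FPKM in Sham_C1 to Sham_C3, at 14.9, 12.6 and 17.5 FPKM in R24h_C1 to R24h_C3, and at 8.99, 9.97 and 9.85 FPKM in R28d_C1 to R28d_C3. Hif1a in the Tiparp arm was at 8.88, 8.60 and 9.46 FPKM in sham, at 13.3, 15.7 and 9.62 FPKM at 24 h and at 14.5, 11.2 and 8.64 FPKM at 28 d. All 6 libraries at 24 h lay above all 6 sham libraries, with R24h_T3 nearest to them. A gene model on the same strand, Gm49321, overlaps Hif1a and reached 3.26 FPKM. The 28 d libraries of the control arm sat close to sham, whereas R28d_T1 reached the 24 h level. The difference from sham at 24 h was 0.68 ± 0.13 (SE) in the control arm (limma, adjusted p = 0.016) and 0.57 ± 0.11 over both arms (adjusted p = 0.00545). For the Tiparp arm it was 0.45 ± 0.18 (limma, adjusted p = 0.323). That value was 0.63 without R24h_T3 (limma, adjusted p = 0.0391), the lowest 24 h library of that arm. It passed in only this 1 of 6 fits with 1 library left out (adjusted p up to 0.651). The control-arm call was lost without any 1 of Sham_C1, Sham_C2, Sham_C3 and R24h_C1 (adjusted p up to 0.076), and the call over both arms held without each of the 12 libraries but not without the 3 libraries of high Ttr (0.50, adjusted p = 0.055).

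Egln3 (ENSMUSG00000035105), the prolyl hydroxylase PHD3 and itself a target of HIF, had the largest difference on the log2(FPKM + 1) scale of the 9 genes tested over both arms. Hk2, the lower of the pair in FPKM, had the larger ratio of means in each arm and the larger difference with a pseudocount of 0.1 (1.34, against 1.26 for Egln3). Egln3 in the control arm was at 2.01, 1.66 and 1.84 FPKM in sham, at 6.75, 4.71 and 4.50 FPKM at 24 h and at 1.72, 2.01 and 1.82 FPKM at 28 d. Egln3 in the Tiparp arm was at 1.34, 2.14 and 1.96 FPKM in sham, at 3.90, 5.22 and 2.72 FPKM at 24 h and at 2.62, 1.68 and 1.74 FPKM at 28 d. Each library at 24 h lay above every sham and every 28 d library, and sham and 28 d overlapped in both arms. The ratio of the 24 h mean to the sham mean was 2.90 in the control arm and 2.18 in the Tiparp arm. The log2 difference was 1.14 ± 0.15 in the control arm (limma, adjusted p = 0.00665), 0.79 ± 0.21 in the Tiparp arm (adjusted p = 0.186) and 0.97 ± 0.14 over both arms (adjusted p = 0.00119). Without R24h_T3, the lowest 24 h library of that arm, the Tiparp-arm difference was 0.98 (limma, adjusted p = 0.0383). It passed in only this 1 of 6 fits with 1 library left out (adjusted p up to 0.502). The call over both arms held without each of the 12 libraries, with values from 0.88 to 1.07.

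From 24 h to 28 d Egln3 fell by 1.13 ± 0.15 in the control arm (limma, adjusted p = 0.0272) and by 0.91 ± 0.15 over both arms (adjusted p = 0.0191). It was the only 1 of the 9 genes tested that passed in these comparisons, where 6% of the 13997 genes tested passed in the control arm and 2.98% of 14756 over both arms. The control-arm call was lost without any 1 of R24h_C1, R24h_C3, R28d_C1, R28d_C2 and R28d_C3 (adjusted p up to 0.121). Over both arms it was lost without any 1 of R24h_C1, R28d_C2, R28d_C3, R24h_T2 and R28d_T2 (adjusted p up to 0.0593) and without R24h_C3 and R28d_T2, those of high Ttr among the 12 (limma, adjusted p = 0.0669). Both calls were lost without the filter on low values (adjusted p = 0.0806 in the control arm and 0.0549 over both). With R24h_T3 left out, 4 of the 9 passed over both arms, the others being Hif1a, Pgk1 and Ldha. With R24h_C2 left out 3 passed in the control arm, the others being Hif1a and Ldha. The share of all genes that passed in those fits is not given here, so these counts cannot be set against it.

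Among the 3 prolyl hydroxylase genes, the share of Egln3 in their summed FPKM moved with its level. It was 3.54% to 5.25% in the 6 sham libraries, 7.06% to 14.5% at 24 h and 4.10% to 7.30% at 28 d. At 24 h the share was 6.32 percentage points higher than in sham (exact permutation test within arms, 400 labellings, p = 0.005, the smallest it can give; adjusted over 14 tests of shares, p = 0.035). Every library at 24 h but R24h_T3 (7.06%) exceeded the highest 28 d library. Egln1, the main hydroxylase of HIF-1α under normal oxygen, differed from sham by 0.08 and Egln2 by -0.12 at 24 h over both arms, and neither passed (limma, adjusted p = 0.355 and 0.187).

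Hk2 (ENSMUSG00000000628) encodes hexokinase 2, which phosphorylates glucose on entry and can bind mitochondria. Hk2 in the control arm was at 0.712, 0.628 and 0.545 FPKM in sham, at 2.08, 1.55 and 2.38 FPKM at 24 h and at 0.602, 1.39 and 1.05 FPKM at 28 d. Hk2 in the Tiparp arm was at 0.515, 0.466 and 0.540 FPKM in sham, at 1.37, 1.71 and 0.851 FPKM at 24 h and at 2.12, 1.83 and 0.824 FPKM at 28 d. All 6 libraries at 24 h were above all 6 sham libraries. In the Tiparp arm all 3 libraries at 28 d were above sham too, and R28d_T1 and R28d_T2 exceeded every 24 h library of that arm. The difference at 24 h was 0.87 ± 0.13 in the control arm (limma, adjusted p = 0.00932) and 0.74 ± 0.11 over both arms (adjusted p = 0.00137), where the ratio of means was 3.19 in the control arm. With a pseudocount of 0.1 in place of 1 these differences were 1.52 and 1.34 (limma, adjusted p = 0.00694 and 0.000601). In a fit without the filter on low values these adjusted p were 0.0314 and 0.00534. At 28 d over both arms Hk2 differed from sham by 0.52 ± 0.15 (limma, adjusted p = 0.143), the largest of the 9 genes at that time, and it passed only without R28d_C1 or without R28d_T3.

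Hexokinase 1 (Hk1), the main brain hexokinase, was at 27.3 to 63.0 FPKM, far above Hk2. Hk2 made up 1.04% to 1.80% of the sum of the 2 in sham, 2.22% to 8.00% at 24 h and 1.57% to 3.99% at 28 d. The rise of 2.60 percentage points at 24 h passed (exact permutation test within arms, p = 0.005, adjusted p = 0.035), while the difference of 1.5 points at 28 d did not (p = 0.015, adjusted p = 0.0525). R24h_C3 held the highest share (8.00%), with Hk1 at 27.3 FPKM, its lowest in any library, and with the lowest sum of 8 pan-neuronal markers (568 FPKM, against 860 to 1102 FPKM in the other libraries). Without 1 library the adjusted p of the 24 h shares exceeded 0.05 in 6 of 12 cases for Hk2 and in 6 of 12 for Egln3.

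Pfkfb3 (ENSMUSG00000026773) makes fructose-2,6-bisphosphate, the activator of phosphofructokinase. Pfkfb3 in the control arm was at 4.35, 3.47 and 2.89 FPKM in sham, at 4.47, 6.09 and 6.19 FPKM at 24 h and at 2.80, 4.12 and 3.43 FPKM at 28 d. Pfkfb3 in the Tiparp arm was at 4.82, 4.26 and 5.29 FPKM in sham, at 6.32, 4.97 and 4.20 FPKM at 24 h and at 8.12, 4.09 and 5.34 FPKM at 28 d. The control-arm groups did not overlap at 24 h, R24h_C1 being only just above Sham_C1, and in the Tiparp arm all 3 groups overlapped. Its highest library of all was R28d_T1. The difference from sham at 24 h was 0.53 ± 0.16 in the control arm (limma, adjusted p = 0.0551), 0.08 ± 0.16 in the Tiparp arm (adjusted p = 0.822) and 0.30 ± 0.13 over both arms (adjusted p = 0.101). It passed over both arms only without R24h_T3 (0.38, adjusted p = 0.0299). As a share of Pfkfb2, Pfkfb3 and Pfkfb4, Pfkfb3 took 29.4% to 43.4% in sham and 41.5% to 53.9% at 24 h, 8.68 points more (exact permutation test within arms, p = 0.01, adjusted p = 0.0467), a call lost in 9 of 12 cases with 1 library left out. Pfkfb2 was 0.18 lower at 24 h over both arms without passing (limma, difference -0.18, adjusted p = 0.103).

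Aldoa (ENSMUSG00000030695), the fructose-bisphosphate aldolase of muscle and brain, did not pass in any comparison. Aldoa in the control arm was at 294, 276 and 267 FPKM in sham, at 298, 359 and 248 FPKM at 24 h and at 288, 273 and 293 FPKM at 28 d. Aldoa in the Tiparp arm was at 282, 278 and 253 FPKM in sham, at 322, 253 and 272 FPKM at 24 h and at 267, 296 and 286 FPKM at 28 d. The highest and the lowest of the 18 values, R24h_C2 and R24h_C3, belonged to the same group. The difference at 24 h over both arms was 0.08 ± 0.10 (limma, 95% interval -0.14 to 0.29, adjusted p = 0.602). Fam57b, which overlaps Aldoa on the opposite strand, reached 21.1 FPKM in these stranded libraries. The share of Aldoa in Aldoa plus Aldoc, the aldolase of astrocytes, was 49.8% to 56.1% in sham and 49.3% to 67.4% at 24 h, and the difference of 5.96 points did not pass (exact permutation test, p = 0.065, adjusted p = 0.152).

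Pgk1 (ENSMUSG00000062070), phosphoglycerate kinase 1, makes the first ATP of glycolysis. Pgk1 in the control arm was at 54.8, 48.8 and 53.1 FPKM in sham, at 74.3, 72.2 and 68.6 FPKM at 24 h and at 53.8, 48.3 and 59.0 FPKM at 28 d. Pgk1 in the Tiparp arm was at 58.4, 64.5 and 51.2 FPKM in sham, at 59.0, 71.2 and 60.8 FPKM at 24 h and at 59.0, 58.2 and 49.8 FPKM at 28 d. In the control arm the 24 h group stood above both others without overlap, and in the Tiparp arm it overlapped sham. The difference at 24 h was 0.45 ± 0.09 in the control arm (limma, adjusted p = 0.0196), 0.13 ± 0.14 in the Tiparp arm (adjusted p = 0.656) and 0.29 ± 0.09 over both arms (adjusted p = 0.0361). After median-ratio scaling of the libraries, which lowered the median of all genes from 0.13 to -0.01 in the control arm and from 0.10 to -0.01 over both arms, Pgk1 differed by 0.28 (adjusted p = 0.0833) and by 0.16 (adjusted p = 0.186) and no longer passed. Without the filter on low values the adjusted p over both arms was 0.0607. That call over both arms was lost too without any 1 of Sham_C1, Sham_C2, Sham_C3, R24h_C1, R24h_C2, R24h_C3, Sham_T3 and R24h_T2 (adjusted p up to 0.0897), and that of the control arm without any 1 of Sham_C1, Sham_C2, Sham_C3 and R24h_C1 (adjusted p up to 0.0937).

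Pgk1 has processed copies, and its level is uncertain for that reason. Pgk1-rs7 and Gm5537 matched the Pgk1 transcript at 100% over 1255 and 1252 bases and were listed at 29.0 to 49.0 FPKM and 29.0 to 48.9 FPKM. Both lay near Pgk1 in pattern, being the 2 genes closest to it of 14975 searched (root-mean-square difference of centred log2 values over 18 libraries of 0.06 each). Summed with these copies, Pgk1 was at 109 to 120 FPKM in the control-arm sham libraries and at 156 to 172 FPKM at 24 h. The summed level rose by 0.51 ± 0.09 in the control arm (limma, adjusted p = 0.0149) and by 0.35 ± 0.09 over both arms (adjusted p = 0.0187), while in the Tiparp arm it differed by 0.18 ± 0.14 (adjusted p = 0.541). The copies of Ldha (3) and Bnip3 (5) had a mean under 1 FPKM where they were in the table.

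Ldha (ENSMUSG00000063229) encodes the A subunit of lactate dehydrogenase, which favours the making of lactate. Ldha in the control arm was at 33.6, 30.6 and 30.5 FPKM in sham, at 50.9, 47.6 and 55.0 FPKM at 24 h and at 39.6, 29.8 and 34.9 FPKM at 28 d. Ldha in the Tiparp arm was at 35.5, 40.7 and 36.9 FPKM in sham, at 33.8, 40.8 and 38 FPKM at 24 h and at 34.4, 33.9 and 31.4 FPKM at 28 d. In the control arm every 24 h library exceeded every sham and 28 d library. Sham and 24 h of the Tiparp arm covered the same range, and all of its 24 h libraries were below those of the control arm. The difference from sham at 24 h was 0.68 ± 0.10 in the control arm (limma, adjusted p = 0.00861), -0.01 ± 0.12 in the Tiparp arm (adjusted p = 0.98) and 0.34 ± 0.12 over both arms (adjusted p = 0.0635). The control-arm call was lost without Sham_C2 (adjusted p = 0.0518) or R24h_C1 (adjusted p = 0.0536). Over both arms Ldha passed without Sham_T2, without R24h_T1 or without R24h_T3.

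The difference between the arms in the 24 h response of Ldha was tested as an interaction and was -0.69 ± 0.15 (95% interval -1.02 to -0.36). Its unadjusted p was 0.000751 and its adjusted p was 0.415 (limma over 14589 genes), so it did not pass. The sham groups of the arms lay the other way, with the Tiparp arm 0.25 ± 0.07 above the control arm (limma, adjusted p = 0.267) and no overlap. At 24 h the Tiparp arm was 0.44 ± 0.15 below the control arm (adjusted p = 0.668). Of the sham libraries of the Tiparp arm, Sham_T1 and Sham_T2 were those of high Ttr.

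Lactate dehydrogenase mRNA in this tissue was mainly that of the B subunit, with Ldhb at 184 to 262 FPKM, and no protein was measured. Ldha took 11.3% to 14.8% of the sum of both in sham, 12.9% to 23.0% at 24 h and 12.4% to 16.3% at 28 d. At 24 h the share was 8.68 points above sham in the control arm and 1.71 points above it in the Tiparp arm. Over both arms the difference of 5.20 points had an exact permutation p of 0.02 and an adjusted p of 0.056. Ldhb was lower at 24 h by a log2 difference of -0.22 without passing (limma over both arms, adjusted p = 0.0666).

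Slc16a3 (ENSMUSG00000025161), the lactate exporter MCT4, was scarce. Slc16a3 in the control arm was at 0.389, 0.368 and 0.457 FPKM in sham, at 0.773, 0.724 and 1.92 FPKM at 24 h and at 0.464, 0.487 and 0.880 FPKM at 28 d. Slc16a3 in the Tiparp arm was at 0.464, 0.549 and 0.452 FPKM in sham, at 0.537, 0.701 and 0.538 FPKM at 24 h and at 0.944, 0.516 and 0.432 FPKM at 28 d. In the control arm all 24 h libraries were above sham, with R24h_C3 alone above 1 FPKM, and in the Tiparp arm the groups overlapped. No test was made of it because it failed the filter in every comparison. Its relative Slc16a1 (MCT1), which moves lactate across vessel and glial membranes, was at 2.89 to 3.53 FPKM in sham and at 4.20 to 8.89 FPKM at 24 h, and it rose by 0.85 ± 0.13 over both arms (limma, adjusted p = 0.00162).

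Pdk1 (ENSMUSG00000006494) encodes a kinase that switches off pyruvate dehydrogenase, and Bnip3 (ENSMUSG00000078566) encodes a mitochondrial outer membrane protein that acts in mitophagy. Pdk1 in the control arm was at 5.35, 4.70 and 5.16 FPKM in sham, at 5.71, 6.40 and 4.39 FPKM at 24 h and at 5.48, 5.03 and 5.28 FPKM at 28 d. Pdk1 in the Tiparp arm was at 5.36, 5.17 and 4.99 FPKM in sham, at 5.68, 5.77 and 6.69 FPKM at 24 h and at 5.66, 5.20 and 5.53 FPKM at 28 d. Its 24 h libraries in the Tiparp arm were all above sham, by little, and R24h_C3 was the lowest of the 18. The difference over both arms at 24 h was 0.14 ± 0.08 (limma, 95% interval -0.04 to 0.32, adjusted p = 0.237), and its share among Pdk1 to Pdk4 differed from sham by -0.33 points (exact permutation test, p = 0.885).

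Bnip3 in the control arm was at 18.7, 17.8 and 17.4 FPKM in sham, at 23.2, 26.1 and 18.6 FPKM at 24 h and at 19.6, 20.6 and 17.6 FPKM at 28 d. Bnip3 in the Tiparp arm was at 19.0, 26.2 and 21.2 FPKM in sham, at 29.0, 22.9 and 21.6 FPKM at 24 h and at 23.6, 20.0 and 16.6 FPKM at 28 d. R24h_C1 and R24h_C2 were above the sham libraries of their arm and R24h_C3 was within them, and in the Tiparp arm all groups overlapped. The difference at 24 h was 0.30 ± 0.13 in the control arm (limma, adjusted p = 0.134) and 0.22 ± 0.11 over both arms (adjusted p = 0.15). Without R24h_C3, the lowest 24 h library of that arm, the control-arm value was 0.43 and passed (limma, adjusted p = 0.0348). It passed in only this 1 of 6 fits with 1 library left out (adjusted p up to 0.297).

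**Figure D3:**
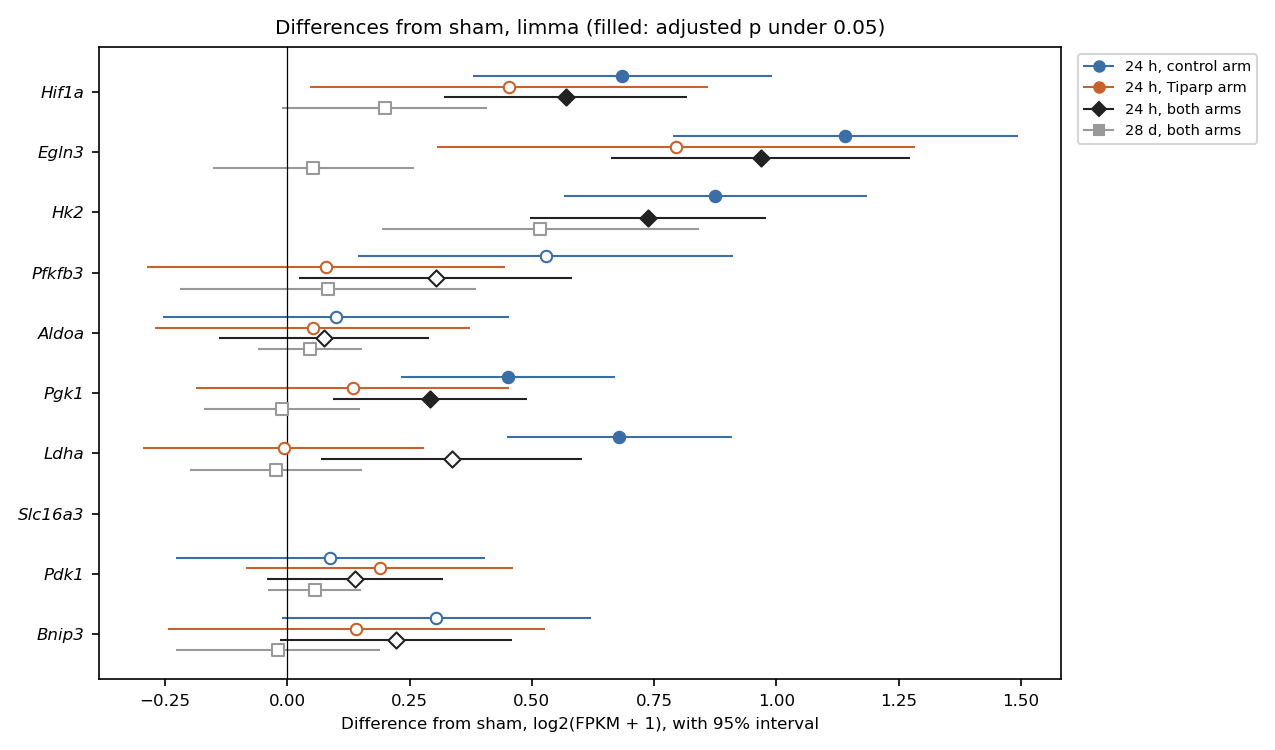
limma difference from sham of each gene on the log2(FPKM + 1) scale, with its 95% interval, at 24 h in the control arm (blue circles), the Tiparp arm (orange circles) and both arms (black diamonds), and at 28 d in both arms (gray squares), with filled symbols for adjusted p under 0.05. Slc16a3, and Hk2 in the Tiparp arm, were not tested, and no value at 28 d or in the Tiparp arm is filled.

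By arm, 5 of the 9 genes tested rose at 24 h in the control arm (Egln3, Hk2, Ldha, Hif1a and Pgk1), where 24% of the 13880 genes tested passed and 19.8% rose. Of the 10 genes, 7 had no overlap between R24h_C and Sham_C, and so had 47.9% of all genes tested. Here and below, counts of genes without overlap take in those not tested (Slc16a3, and Hk2 in some comparisons). The shares set beside them are of genes tested only. In the Tiparp arm none of 8 passed (0.222% of 13509 genes passed). By limma 2 of the 8 (Hif1a and Egln3) had an unadjusted p under 0.05 there, as had 14.3% of all genes. In that arm 4 of the 10 had no overlap (Hif1a, Egln3, Hk2 and Pdk1), against 22.2% of all genes. Leaving out R24h_C1 left only 1 call among the 10 genes in the control arm, Egln3, in part because Hk2 then failed the filter on low values. Leaving out Sham_C2 left 2 calls (Egln3 and Hk2), and leaving out Sham_C1 or Sham_C3 left 3 (Egln3, Hk2 and Ldha). Leaving out R24h_T3 gave 2 in the Tiparp arm (Hif1a and Egln3). For these fits with 1 library left out, the share of all genes that passed is not given here. A call in one arm and not in the other does not show that the arms differ. In the interaction none of the 9 genes passed (0% of 14589 genes passed). By limma 1 of the 9, Ldha, had an unadjusted p under 0.05 in it, as had 10.9% of all genes. Across both arms, 3 of the 10 genes (Hif1a, Egln3 and Hk2) were higher in every 24 h library than in every sham library, as were 8.19% of the genes tested.

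Between the arms none of the 10 genes passed in any of the 3 conditions (limma). In sham 0.21% of 13349 genes passed, and 3 of the 8 tested had an unadjusted p under 0.05, as had 12.8% of all genes. These were Pfkfb3 (difference 0.35 ± 0.13), Bnip3 (0.28 ± 0.11) and Ldha, each higher in the Tiparp arm. Hk2, Ldha and Bnip3 had no overlap between the sham groups, 3 of the 10 genes, against 19.5% of all genes. At 24 h 0% of 14018 genes passed. By limma 1 of the 9, Ldha, was under an unadjusted p of 0.05, as were 7.22% of all genes. Without overlap at 24 h were 2 of the 10 (Ldha and Slc16a3), against 12% of all genes. Hk2 at 24 h was lower in the Tiparp arm by a log2 difference of -0.39 ± 0.19 (limma, adjusted p = 0.668), with overlap of the groups. At 28 d 0% of 13779 genes passed. Pfkfb3, 0.59 ± 0.23 higher in the Tiparp arm (limma, adjusted p = 0.994), was the only 1 under an unadjusted p of 0.05, against 2.52% of all genes. None of the 10 was without overlap there, against 6.09% of all genes.

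At 28 d none of the 10 genes differed from sham by limma's adjusted p. In the control arm 0.0522% of 13419 genes passed and 0 of the 8 tested were under an unadjusted p of 0.05, against 11.5% of all genes. In the Tiparp arm 0.0148% of 13544 passed and again 0 of 8 were under an unadjusted p of 0.05, against 10.5% of all genes. Over both arms 0.00702% of 14242 genes passed and 1 of the 9, Hk2, was under an unadjusted p of 0.05, against 17.3% of all genes. Leaving Hk2 and Hif1a (0.20 ± 0.10) aside, the differences over both arms lay between -0.02 and 0.08. In the Tiparp arm Hk2 (above) and Ldha (below) had no overlap with sham at 28 d, where 16.3% of all genes had none, and in the control arm this held for Slc16a3 only, against 18.7% of all genes. The difference between the arms in the 28 d response passed for none of the 9 (0.00702% of 14242 genes passed). For it 0 of the 9 were under an unadjusted p of 0.05, against 4.84% of all genes.

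Between 24 h and 28 d in the control arm 6 of the 10 genes were lower at 28 d with no overlap (Hif1a, Egln3, Hk2, Pfkfb3, Pgk1 and Ldha), against 37.5% of all genes with no overlap in either direction. Of the 9 tested, 1 fell (Egln3), as did 4.79% of all genes. The 5 others had differences of -0.58 (Hif1a, adjusted p = 0.0529), -0.55 (Ldha, 0.0573), -0.42 (Pgk1, 0.0695), -0.56 (Pfkfb3, 0.0757) and -0.59 (Hk2, 0.091) by limma. With all 18 libraries in 1 fit, Hif1a, Pgk1 and Ldha passed as well, and the share of all genes that passed in that fit is not given here. In the Tiparp arm none of the 9 passed (0% of 13824 genes). Egln3, lower by a difference of -0.70 ± 0.22 (limma, adjusted p = 0.536), was the only 1 under an unadjusted p of 0.05, against 8.09% of all genes. There 3 of the 10 (Egln3, Pgk1 and Pdk1) had no overlap, against 13.9% of all genes. Over both arms Egln3 alone fell, as did 1.5% of all genes. Over all 6 libraries of each time, 2 of the 10 genes (Egln3 and Pgk1) were lower in every library at 28 d, as were 1.23% of genes, though for Pgk1 the nearest values of the 2 times, both 59.0 FPKM when rounded, almost met. The comparisons with sham and with each other share libraries and are not independent.

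**Figure D4:**
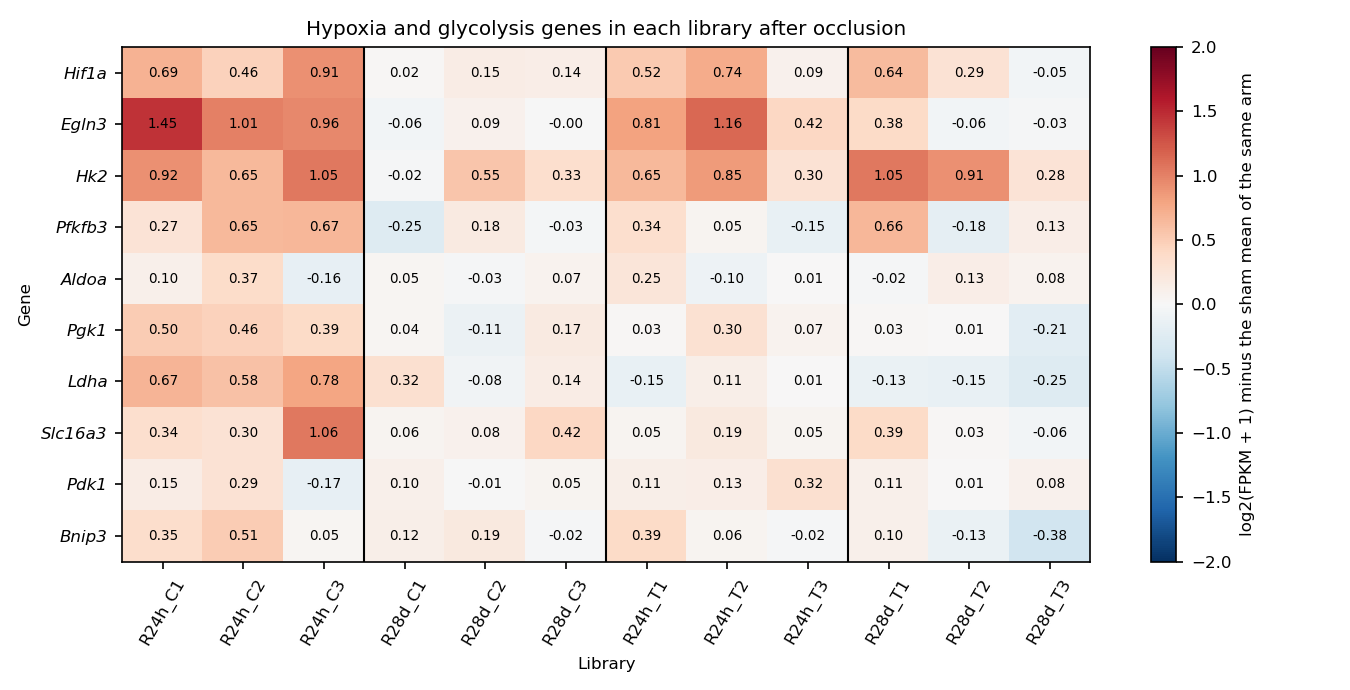
Difference of each library after tMCAO from the sham mean of its own arm, on the log2(FPKM + 1) scale, for the 10 genes (rows) in the 12 libraries (columns; red higher, blue lower). No value exceeds 0.42 in R24h_T3 or 0.32 in R28d_C1, and R24h_C3 combines 1.06 for Slc16a3 with -0.17 for Pdk1. In R28d_T1 Hif1a is at 0.64, Hk2 at 1.05 and Pfkfb3 at 0.66, and no other gene exceeds 0.39. For Pfkfb3 the 24 h libraries of that arm reach 0.34.

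The genes did not respond alike in each library. Of the 10, the number above every sham library of the same arm was 10 in R24h_C1, 10 in R24h_C2, 7 in R24h_C3, 7 in R24h_T1, 7 in R24h_T2 and 4 in R24h_T3. At 28 d it was 4, 4 and 5 for R28d_C1 to R28d_C3 and 6, 3 and 4 for R28d_T1 to R28d_T3. The share of all genes above every sham library of the arm was 55.4%, 50.8% and 57.6% in R24h_C1 to R24h_C3, with the highest share in the library where the fewest of the 10 were above sham. It was 48.2%, 49.4% and 25.6% in R24h_T1 to R24h_T3. At 28 d this share was 30.7%, 39.7% and 44.3% in R28d_C1 to R28d_C3 and 49.3%, 39.4% and 25.1% in R28d_T1 to R28d_T3. It was taken over genes with at least 1 FPKM in that library or in a sham library of its arm. That set differed by library (13971 to 15205 genes) and let in genes low in sham through the library itself. The 10 genes were counted without any filter. In R24h_C3 the 3 genes not above sham were Aldoa, Pdk1 and Bnip3. In R24h_T3 those above sham were Hif1a, Egln3, Hk2 and Pdk1.

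Markers of other cell types are given beside these counts. The 7 markers of monocytes and macrophages summed to 16.5 to 20.4 FPKM in the 6 sham libraries, 92.3 to 314 FPKM in R24h_C, 43.8 to 169 FPKM in R24h_T, 21.2 to 182 FPKM in R28d_C and 42.0 to 759 FPKM in R28d_T. The lowest sums after tMCAO were those of R28d_C1, R28d_T3 and R24h_T3, and the highest was that of R28d_T1. The order of these sums was not that of the counts of the 10 genes: R24h_C2 had 92.3 FPKM with all 10 above sham, and R28d_T2 had 279 FPKM with 3 above sham. Single genes, looked at after their values were seen, differed in this. At 28 d Hk2 rose in the order of the sums, from 0.602 FPKM in R28d_C1 to 2.12 FPKM in R28d_T1. Hif1a did so too, but for R28d_C1 and R28d_T3, which were in reverse order. No other of the 10 genes kept that order. At 24 h neither Hk2 nor Hif1a kept it throughout, though both were lowest in R24h_T3, as was the sum. The 6 neutrophil markers summed to 1.83 to 3.35 FPKM in sham, 23.0 to 201 FPKM in R24h_C and 7.46 to 26.0 FPKM in R24h_T, with Ly6g listed at 0 in all 6 sham libraries. The 7 endothelial markers, which include Flt1 and Tek of the HIF-1 pathway, summed to 10.3 to 19.9 FPKM in sham and 19.9 to 55.1 FPKM at 24 h. The 8 astrocyte markers, Aldoc among them, summed to 574 to 721 FPKM in sham, 645 to 986 FPKM at 24 h and 641 to 1561 FPKM at 28 d. The part of these cells in the changes of the 10 genes was not tested.

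Other genes of the same pathways were counted by list. Over all genes tested at 24 h over both arms 19.3% rose and 24.7% passed in either direction, with a median difference of 0.10. Of 19 genes of glucose uptake and glycolysis outside the 10, 3 rose over both arms at 24 h and none fell, with a median difference of 0.01. Those 3 were Hk3, the gene listed as Pgm1 (ENSMUSG00000029171) and the glucose transporter Slc2a1. Hk3, the hexokinase of white blood cells, was at 0.23 to 0.51 FPKM in sham and 0.81 to 3.09 FPKM at 24 h. It was so tested only through the libraries after tMCAO, and it rose by 1.03 ± 0.18 (limma, adjusted p = 0.00311). The gene listed as Pgm1 rose by 0.55 ± 0.16 (limma, adjusted p = 0.03) and Slc2a1 by 0.94 ± 0.28 (adjusted p = 0.0306). The phosphoglucomutase gene listed as Pgm2 (ENSMUSG00000025791) was at 17.3 to 20.5 FPKM in sham and 14.4 to 19.1 FPKM at 24 h and did not pass. Symbols here are those of the deposited table. Slc2a1 was at 10.9 to 16.4 FPKM in sham and 26.3 to 34.1 FPKM in R24h_C, and reached 64.2 FPKM in R24h_T1 with R24h_T2 and R24h_T3 at 17.9 and 13.7 FPKM. Gapdh, Tpi1, Pgam1, Eno1, Eno2 and Pkm did not pass. Of 4 genes of lactate handling 1 rose, Slc16a1, and none fell (median 0.06).

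At the entry of pyruvate to mitochondria 2 of 10 genes rose and 1 fell at 24 h over both arms (median 0.14), where 19.3% of all genes rose and 24.7% passed in either direction. Dlat and Dld, subunits of pyruvate dehydrogenase, rose by 0.26 ± 0.07 and 0.30 ± 0.08 (limma, adjusted p = 0.0181 and 0.0221). Pdp1, the phosphatase that reactivates that enzyme and so opposes Pdk1, fell by 0.59 ± 0.18 (limma, adjusted p = 0.032), from 21.0 to 26.4 FPKM in sham to 10.7 to 27.0 FPKM at 24 h, with R24h_T2 (27.0 FPKM) above every sham library. Among 8 genes of the HIF machinery 1 rose and none fell (median -0.06), namely Epas1 (HIF-2α), by 0.37 ± 0.10 (adjusted p = 0.0196). Arnt, the partner of HIF-1α, Vhl and Hif1an did not pass.

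Among 25 other genes known to be induced by hypoxia, 23 were tested, 7 rose and none fell, where 19.3% of all genes tested rose. The 3 with the smallest p were Hmox1 (heme oxygenase 1, 4.10 ± 0.51, limma adjusted p = 0.000687), Gbe1 (glycogen branching enzyme, 0.52 ± 0.07, adjusted p = 0.00111) and Adm (adrenomedullin, 1.35 ± 0.22, adjusted p = 0.00197). Hmox1 was at 2.33 to 3.94 FPKM in sham and at 18.6 to 180 FPKM at 24 h. Vegfa, the vessel growth factor, was at 10.5 to 13.7 FPKM in sham and 6.23 to 13.4 FPKM at 24 h and did not pass (adjusted p = 0.348). The 23 had a median difference of 0.07, and Pfkfb4 stood both here and in the list of glycolysis. Adm was low in sham and entered the test through the libraries after tMCAO.

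**Figure D5:**
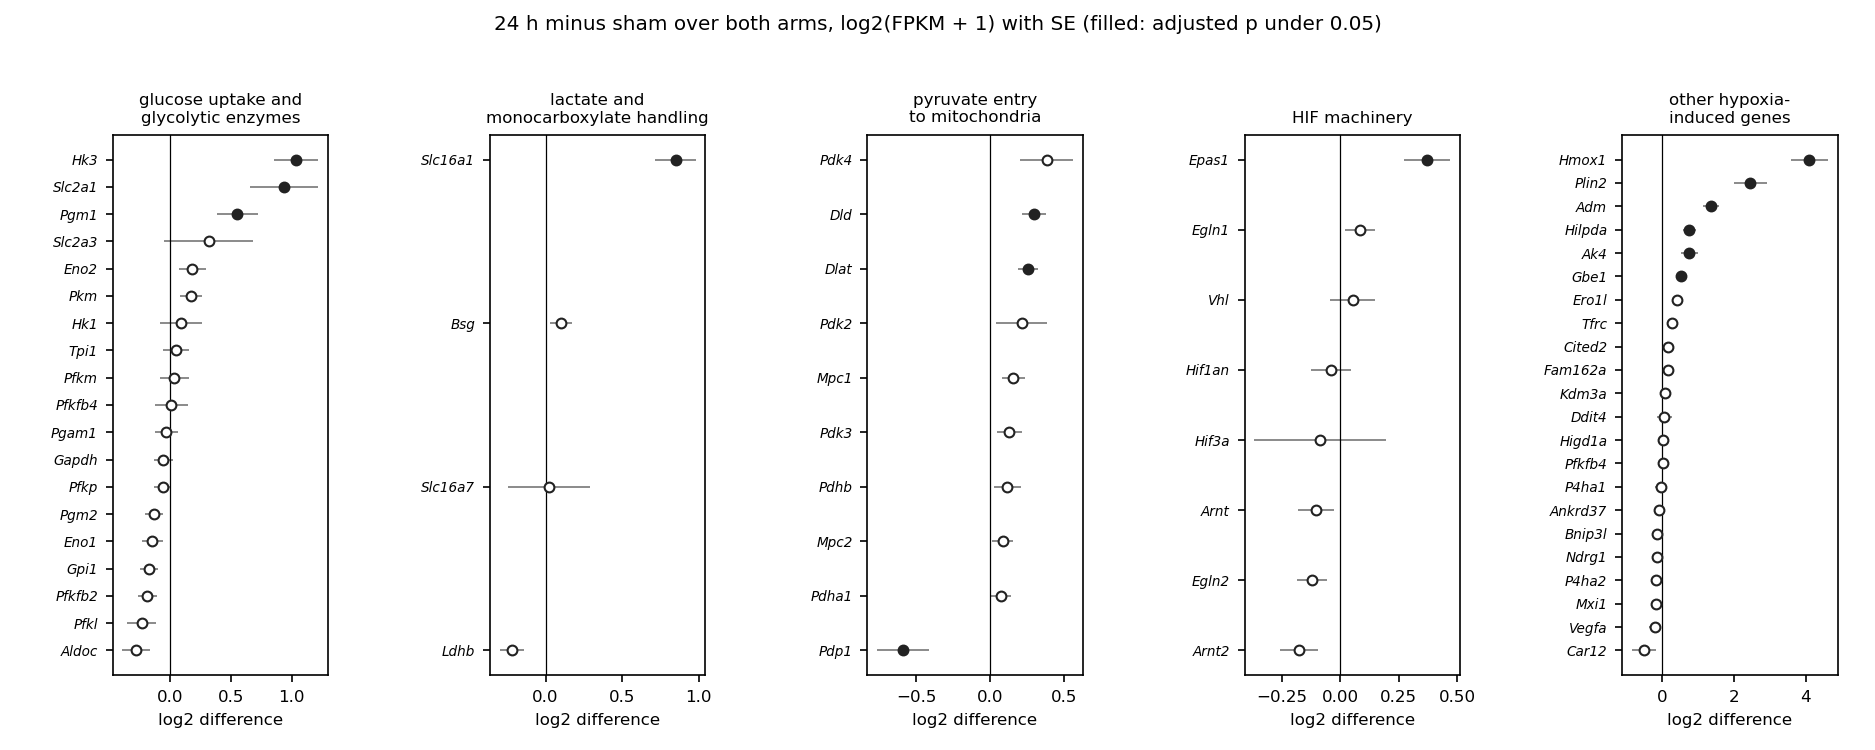
limma difference between 24 h and sham over both arms (log2(FPKM + 1), bar for the SE) of the genes in 5 pathway lists outside the 10, sorted by size, with filled dots for adjusted p under 0.05. Of the glycolytic list 3 of 19 genes are filled, and the other hypoxia-induced genes, of which 22 of 23 are drawn and 1 that passed is not, hold 6 filled dots up to Hmox1 at 4.10, with 16 open, Vegfa among them.

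In the deposited pathway annotation (KEGG), 8 of the 10 genes belonged to HIF-1 signalling, all but Slc16a3 and Bnip3, and 4 to glycolysis and gluconeogenesis. Of the other HIF-1 signalling genes tested, 27 of 79 rose at 24 h over both arms and 1 fell (Bcl2), and of the other glycolysis genes 8 of 42 rose, against 19.3% of all genes. The 4 of the first group with the smallest p were Timp1 (4.23 ± 0.42), Hmox1, Stat3 (1.69 ± 0.24) and Flt1 (1.05 ± 0.15). Of the 79 HIF-1 signalling genes 64 passed the filter on low values in the sham libraries alone, as did 40 of the 42 glycolysis genes. Over all genes 13349 of 14589 did. The rest entered through the 24 h libraries, which favours genes that are high there, and how much this added to the count of 27 was not tested. At 28 d against sham over both arms none of these lists held a gene that passed, where 0.00702% of all genes did.

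For the genes that rose over both arms, the nearest patterns over the 18 libraries, by root-mean-square difference of centred log2 values among 14975 genes, were as follows. Nearest to Hif1a were Copb1 (0.07), Dhx9 (0.08) and Pdcd6ip (0.08), at mean levels of 9.16 to 11.6 FPKM. Egln3 was followed by Mpzl2, Cd302 and Slc52a3 (0.17 each), and Hk2 by Naip2, Arhgap30 and Spidr (0.11 each). Naip2 and Arhgap30 are known from white blood cells, which is not said here of Spidr or of the neighbours of the other genes. Pgk1 was followed by its 2 copies and then by Selenot (0.07). None of the other 9 genes was searched as a neighbour, and the 18 libraries share their tissue and condition, so that likeness is a description.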

How the data were processed

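Poly(A) RNA of 18 cortex libraries was sequenced as stranded paired-end reads, per the labels' protocols; these and the design text name different sequencers. The authors deposited FPKM per gene. Per the submitters' processing notes HISAT, StringTie and edgeR were used with build mm9, with no versions. FPKM holds no read totals, so the read depth is unknown. Where reads match several genes, as for Pgk1 and its copies, the split between them is not given in the sources used here.

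Tests were two-sided and used limma 3.58.1 in R 4.3.3 with a mean-variance trend and empirical Bayes on log2(FPKM + 1), in the libraries of the groups compared, for genes with at least 1 FPKM in at least 3 of them. p was adjusted by Benjamini and Hochberg over all genes tested, at 0.05. Fits over both arms held the arm as a covariate. Isozyme shares of summed FPKM were compared by exact permutation within arms (Python 3.11.15, scipy 1.17.1), adjusted over 14 tests. The code was tested on simulated data. Copies of transcripts were found with blastn 2.17.0 (at least 300 bases at 95% identity) in GENCODE M21, which holds 99.7% of the gene identifiers and is of another build, used only for copies and overlaps. The 10 genes and the lists were chosen with earlier results of these data known. Named pathway genes were up to 4 passing members a list by p, or else the 2 with the smallest p, and others were picked after their values were seen. Some list genes are not reported here. Of 61 repeated symbols the entry with the highest mean was used. No label ties a library to its own mouse, and each p-value therefore rests on library-to-library spread, which may be technical. The fits were repeated without the filter, with a pseudocount of 0.1, after median-ratio scaling, with all 18 libraries in 1 fit, with a replicate block and with each library left out, and, chosen after seeing the data, leaving out libraries of high Ttr and summing Pgk1 with its copies.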

Additional observations from a re-analysis of the deposited data

How the results depend on the processing

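Across 14 comparisons and 192 alternatives the number of the 10 genes that passed stayed within 1.5 times its value in 166. It moved in 26. The share of all genes that passed under each alternative is not given here. Between 24 h and 28 d the control arm (1 gene) gave 0 without the filter, 0 with the replicate block, 4 with all 18 libraries in 1 fit and 0 to 3 with 1 library left out. For the same times over both arms (1 gene) it was 0 without the filter, 0 with the replicate block, 4 with all 18 libraries, 0 without the libraries of high Ttr and 0 to 4 with 1 library left out. With 1 library left out, the 24 h count relative to sham was 1 to 5 among scramble libraries (5 genes) and 0 to 2 in the Tiparp arm (0 genes), and at 28 d against sham over both arms 0 to 1 (0 genes). The cause of these moves was not tested, beyond the smaller number of libraries and, for Hk2, the filter. Of 1860 single values under alternatives 60 lost and 24 gained a call, and none that was called changed sign. Another 93 uncalled values changed sign.

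The labels number the replicates 1 to 3 in each group. Same-numbered libraries did not deviate together (correlation of deviations between -0.27 and 0.21 for the comparisons of times within an arm), so the numbers were not taken as pairs. With the replicate block Egln3 lost its calls between 24 h and 28 d (limma, adjusted p = 0.102 in the control arm and 0.0601 over both arms), Pgk1 lost its calls at 24 h (adjusted p = 0.0541 and 0.0667), and the count over both arms was 3 in place of 4. Low signal limits Slc16a3 and Hk2, at or near 1 FPKM, where FPKM gives no read count.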

Other observations

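Slc2a3, the neuronal glucose transporter, was at either 5.02 to 6.05 FPKM or 12.8 to 19.5 FPKM in these libraries, with no value between. The low values were those of the 3 Sham_C libraries, R28d_C1, R24h_T2 and R24h_T3, and the high values were all others, including the 3 Sham_T libraries. It was chosen after its values were seen. Over both arms its 24 h difference from sham was 0.32 ± 0.37 (limma, adjusted p = 0.549). Within the control arm it was 1.37 ± 0.16 (adjusted p = 0.00488), and between the sham groups it was 1.25 ± 0.08 higher in the Tiparp arm (adjusted p = 0.00292).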
